A study of Mus musculus with 6 samples.

Results

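The genes described here are 30 genes of sterol synthesis, sterol sensing, uptake and efflux, chosen by name from the 19225 genes listed for brain CD11b+ cells of mice with and without the cannabinoid receptor CB1. All 30 were listed. They comprise 8 genes of the mevalonate steps, 10 genes of the steps from squalene to cholesterol, 5 genes that sense sterols and control the transcription factor SREBP, and 7 genes of the liver X receptors (LXR), cholesterol efflux, receptor turnover, sterol transfer and esterification. The RNA came from 3 male mice labelled Cnr1+/+ (strain C57BL6/J, genotype wt/wt) and 3 male mice labelled Cnr1-/- (strain Cnr1 tm1Zim, genotype d/d), all given an age of 3 months by the labels, whereas the methods describe somewhat younger mice. The mice were not exposed to stress, and each gave 1 library. The knockout is constitutive, made to remove CB1 from every cell type, and the methods describe the animals of both labels as littermates of one line on a common background. Cells were taken from the brain without cerebellum after myelin removal, with magnetic beads against the myeloid surface protein CD11b.

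Cholesterol in the brain is made locally, because plasma lipoproteins do not pass the blood-brain barrier. Cells build it from acetyl-CoA through mevalonate and squalene, and low membrane sterol lets the escort protein Scap carry SREBP to the Golgi, where SREBP is cut and released to switch on the synthesis genes, whereas the Insig proteins hold it back. Sterol excess acts through the liver X receptors, which switch on the transporters Abca1 and Abcg1 and the ubiquitin ligase Mylip, and microglia depend on these exporters to dispose of the cholesterol that they take up with myelin debris.

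Reads of the libraries come from the 3′ ends of transcripts, so the values (cpm, reads of a gene scaled by the authors to a common library total) were not divided by transcript length. The value of 1 read gave effective library sizes of 7708660 to 10723539 reads, and 3 reads, the limit that a count of 0 allows, corresponded to 0.280 to 0.389 cpm (counting error only). Cnr1 itself had no read in any of the 3 libraries labelled Cnr1+/+ (listed at 0) and at 1.41, 1.21 and 1.79 cpm in those labelled Cnr1-/- (13, 13 and 15 reads). This goes against the labels. Reads of 3′ ends can lie outside the disrupted part of the gene, which bears on the reads in the Cnr1-/- libraries and not on their absence in the others, and the cause was not tested, so every direction below refers to the label of a library and not to a measured loss of Cnr1. The summed level of 9 microglia markers was 14100 to 16259 cpm. The library labelled Cnr1-/- replicate 2 stood apart, with 4056 cpm over 8 neutrophil markers (266 to 523 cpm in the other libraries) and 2334 cpm over 6 erythrocyte markers (136 to 237 cpm), and the part of these cells in the values below was not tested. Because these are bulk samples, fewer cells of a type and less RNA per cell cannot be told apart.

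The promoters of the synthesis enzymes are shown first, since SREBP, described above, switches on such genes. Its action in these cells was not tested. RefSeq promoters (250 bases before to 50 bases after the start, build GRCm38.p6) were matched for 25 of the 30 genes. Abcg1, Fdft1, Fdps, Sqle and Stard4 were not matched. The CCAAT letters bound by NF-Y, searched on both strands, were found for 14 of 15 enzymes (93.3%) and for 20 of the 25 genes (80%). Counted by gene in the same way, they were found for 42.2% of the tested genes and 41.1% of all genes with a promoter. The GGGCGG letters bound by Sp1 were found for 14 of 15 enzymes and for 22 of the 25 (88%), beside 71.5% of tested genes and 38.2% of all genes. The sterol regulatory element TCACNCCAC was found for 1 of 15 enzymes (6.67%), the only 1 of the 25 (4%), beside 1.49% of tested genes and 1.44% of all genes. Only these letters were searched, with any base at N, so an element with other letters was not counted. The promoter with the match belongs to Hmgcs1, the cytosolic HMG-CoA synthase. In the stretch below (chr13:119690144-119690292, plus strand), the capitals mark, in order, a CCAAT match on the other strand, the sterol regulatory element, which begins 137 bases before the start, and a GGGCGG match on the other strand, with no motif overlapping another.
Hmgcs1: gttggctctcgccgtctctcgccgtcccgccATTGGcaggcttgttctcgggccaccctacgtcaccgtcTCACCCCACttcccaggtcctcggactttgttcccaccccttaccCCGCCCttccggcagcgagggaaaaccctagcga
The other 3 enzymes that were abundant enough to be tested also hold CCAAT letters. They are Tm7sf2 (chr19:6067868-6067922, minus strand), Msmo1 (chr8:64733709-64733763, minus strand) and Ebp (chrX:8193653-8193707, minus strand). The promoter of Tm7sf2 holds 1 match, that of Msmo1 3 and that of Ebp 2. Only the first match of each is shown, in capitals with up to 25 bases on each side (ATTGG is CCAAT on the other strand).
Tm7sf2: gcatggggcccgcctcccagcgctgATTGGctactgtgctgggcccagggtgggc
Msmo1: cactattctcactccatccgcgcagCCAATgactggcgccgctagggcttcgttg
Ebp: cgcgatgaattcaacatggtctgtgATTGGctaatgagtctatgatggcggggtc
A match describes the letters in the window and not a site in use.

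Of the 30 genes, 12 (40%) had a mean of at least 10 cpm, the minimum for testing, as did 34.6% of all listed genes. The genes nearest to that minimum were Srebf1, with a mean of 8.93 cpm below it, and Srebf2, with 12.6 cpm above it. On the cpm scale, the highest means were those of Abca1 (117 cpm), Mylip (87.9 cpm), Soat1 (60.9 cpm), the synthesis enzyme Ebp (55.6 cpm) and Abcg1 (50.8 cpm), whereas 14 of the 18 synthesis enzymes lay below the minimum. Among the 12 tested genes, limma on log2 (cpm + 0.1) gave 1 gene with a nominal p under 0.05, Abcg1, where 6.02% of all 6659 tested genes had one. None combined a fold change above 1.5 with an adjusted p below 0.1, by limma or by limma voom, and 0.0901% of all tested genes passed it by limma. The groups of 3 libraries did not overlap for 2 of the 12 tested genes, Abcg1 and Nr1h2, beside 11% of all tested genes, and for the same 2 of all 30, beside 10.1% of all listed genes. The log2 fold change was positive for 8 and negative for 4 of the 12 genes, with a median of 0.08, and the median over all tested genes was also 0.08. After centring every library on its own median, the split was 6 against 6.

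**Figure D1:**
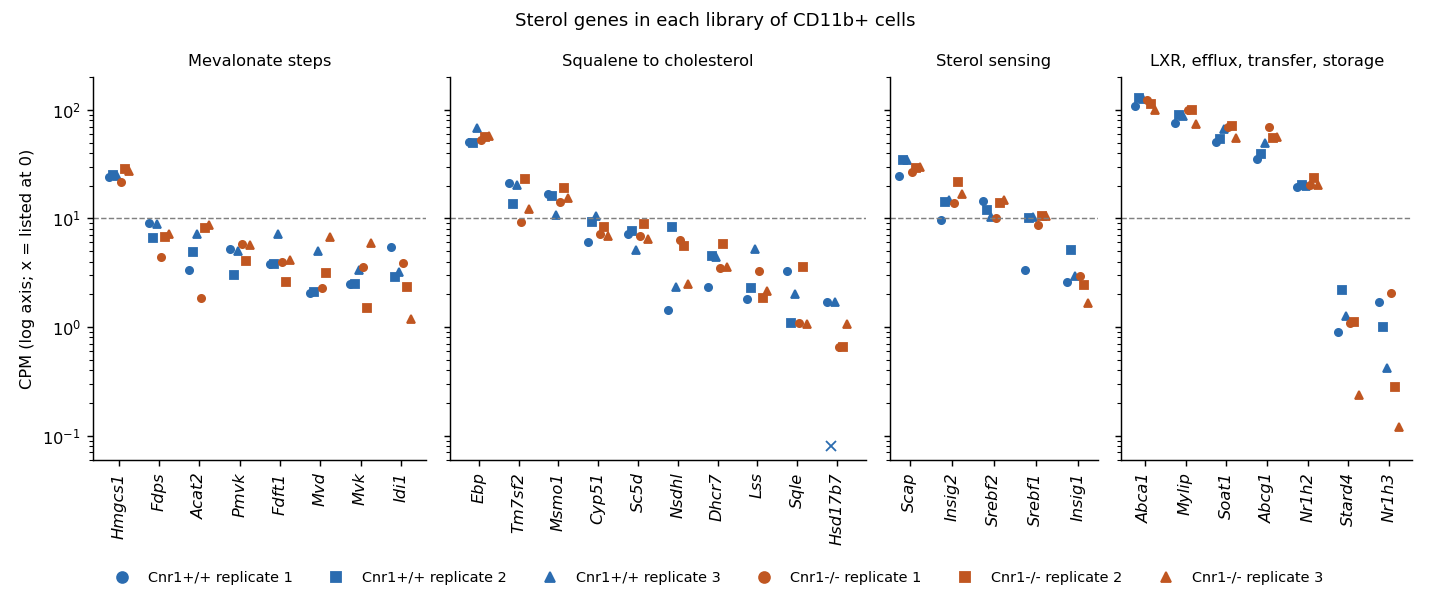
Level of each of the 30 sterol genes in each library (y axis, cpm, logarithmic) by role group, with the genes of a group ordered by their mean, blue for libraries labelled Cnr1+/+, orange for Cnr1-/-, a symbol for each replicate, a cross for a value of 0 and a dashed line at 10 cpm. The exporters, Mylip and Soat1 lie well above the line in every library, whereas most of the synthesis enzymes lie below it, and the blue and orange points of most genes are mixed.

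Of the mevalonate steps, Hmgcs1 was the only gene above the minimum. It was at 24.3, 25.3 and 24.7 cpm in the libraries labelled Cnr1+/+ and at 21.8, 28.4 and 27.5 cpm in those labelled Cnr1-/-, so the second group enclosed the first. Its log2 fold change was 0.06 (SE 0.19, 95% interval -0.33 to 0.44, limma adjusted p = 0.982), and it turned to -0.020 after centring every library on its own median. The other 7 genes had means between 3.16 and 7.12 cpm. Acat2, which joins acetyl-CoA units at the head of the pathway, ranged from 1.84 to 8.71 cpm, with both extremes in libraries labelled Cnr1-/-. Idi1, the isopentenyl diphosphate isomerase, had 5.45, 2.89 and 3.22 cpm against 3.90, 2.33 and 1.19 cpm. Fdps, the farnesyl diphosphate synthase, had 8.99, 6.58 and 8.79 cpm against 4.41, 6.69 and 7.25 cpm. Both overlapped between the groups, as did Fdft1, the squalene synthase, with 3.76, 3.79 and 7.15 cpm against 4.01, 2.61 and 4.17 cpm. Means in the libraries labelled Cnr1-/- were lower for these 3 genes and higher for Acat2, Mvk, Pmvk and Mvd, the last 3 of which phosphorylate and decarboxylate mevalonate. Without Cnr1-/- replicate 3, the log2 difference turned to -0.33 for Acat2 (0.05 with all libraries), -0.24 for Mvk (0.21) and -0.062 for Mvd (0.37). That of Acat2 was also -0.22 without Cnr1+/+ replicate 1, -0.28 without Cnr1-/- replicate 2 and -0.024 with centred libraries. Other left-out libraries raised the difference, to 0.76 for Acat2 without Cnr1-/- replicate 1 and 0.73 for Mvk without Cnr1-/- replicate 2. That of Mvd rose to 0.79 without Cnr1+/+ replicate 3. In the fit without the minimum, the nominal p of the 7 genes lay between 0.189 and 0.909. Fdft1 shares 775 bases with Ctsb (563 cpm), which lies on the opposite strand, and Mvd lies within a second annotated gene, so both rest on how such reads were assigned. Whether counting used the strand was not given in the sources used here.

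Of the steps from squalene to cholesterol, Ebp, the sterol isomerase, was the most abundant on the cpm scale, with 50.1, 49.6 and 68.2 cpm against 52.3, 56.2 and 57.5 cpm. Its groups overlapped throughout, and its log2 fold change was -0.00062 (95% interval -0.32 to 0.32, limma adjusted p = 1.00). Msmo1, which oxidises the methyl groups of lanosterol derivatives, had 16.9, 16.1 and 10.8 cpm against 14.2, 19.2 and 15.4 cpm, with a log2 fold change of 0.17 (95% interval -0.32 to 0.66, limma adjusted p = 0.954). Tm7sf2, a sterol reductase, had 21.1, 13.5 and 20.3 cpm against 9.35, 23.1 and 12.3 cpm. The library labelled Cnr1-/- replicate 2, with its neutrophil and erythrocyte transcripts, had the highest value, whereas the other two of its group had the lowest. The log2 fold change of Tm7sf2 was -0.37 (SE 0.28, 95% interval -0.94 to 0.19, limma adjusted p = 0.900). Without that library it was -0.74 (limma, nominal p of 0.0117), and without Cnr1-/- replicate 1, the lowest library, it was -0.093 (limma, nominal p of 0.747), while its adjusted p lay between 0.780 and 0.999 over all alternatives. Tm7sf2 shares 533 bases with Vps51 on the same strand, and Vps51 had a mean of 6.85 cpm in the libraries labelled Cnr1+/+ and 14.4 cpm in those labelled Cnr1-/-. How much of either value belongs to the neighbouring gene was not tested.

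The 7 other genes of these steps had means between 0.957 and 8.02 cpm. Their groups overlapped in every case, and the nominal p in the fit without the minimum lay between 0.300 and 0.729. Cyp51, the lanosterol demethylase, was the most abundant of them, with 6.10, 9.18 and 10.4 cpm against 7.15, 8.39 and 6.92 cpm, and shares 167 bases with Akap9 (103 cpm) on the opposite strand. Sqle, the squalene epoxidase and a flux-controlling step, had 3.24, 1.10 and 2.00 cpm against 1.08, 3.54 and 1.07 cpm, or 9 to 38 reads. Nsdhl, which removes a carboxyl group from sterol intermediates, varied furthest beyond counting error of these 7 genes. It had 1.43, 8.38 and 2.31 cpm against 6.39, 5.60 and 2.50 cpm, a coefficient of variation of 62.2% over the 6 libraries where counting alone gives 15.7%. Hsd17b7, its partner reductase, was listed at 0 in the library labelled Cnr1+/+ replicate 2 and at most at 1.69 cpm in the others, and no fold change is given for it. Lss, the lanosterol synthase, Sc5d, the sterol desaturase, and Dhcr7, a final reductase, ranged over 1.82 to 5.26, 5.15 to 8.95 and 2.33 to 5.78 cpm.

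Summed over the 18 synthesis enzymes, the level was 167, 163 and 195 cpm in the libraries labelled Cnr1+/+ and 152, 190 and 176 cpm in those labelled Cnr1-/-. The means were 175 ± 17.3 and 173 ± 19.3 cpm (SD, n = 3 each), so the groups differed by less than the spread within either. The enzymes did not move as a block with the label. Each library held the highest value of between 1 and 6 of the 18 enzymes, and the lowest of between 2 and 5. The library labelled Cnr1-/- replicate 2 held the most highest values, 6, and without it the median log2 fold change of all 12 tested sterol genes was 0.02. Oligodendrocytes and astrocytes also make cholesterol. The summed level of 8 oligodendrocyte markers was 657, 859 and 600 cpm against 424, 641 and 805 cpm, with 3 of 8 higher by mean in the libraries labelled Cnr1-/-, and that of 7 astrocyte markers was 429, 474 and 299 cpm against 390, 480 and 551 cpm, with 4 of 7 higher. No marker of either list was at 0 in all libraries. The part of these cells in the enzyme levels was not tested. Among the other marker lists, the summed level of 5 endothelial markers was 26.0, 24.96 and 26.0 cpm against 20.1, 24.93 and 16.2 cpm, lower for the Cnr1-/- labels without overlap though nearly equal at the nearest values, with 1 of 5 markers higher by mean. That of 6 border-associated macrophage markers was 112, 116 and 142 cpm against 93.6, 94.8 and 123 cpm, with 2 of 6 higher. Their part in the levels of the sterol genes, Abcg1 included, was likewise not tested.

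**Figure D2:**
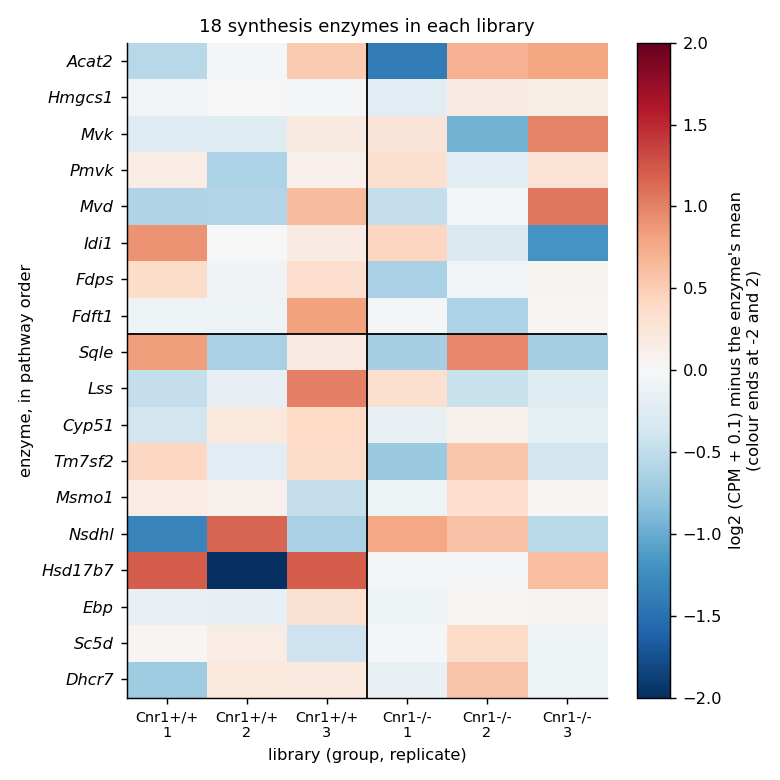
Deviation of each of the 18 synthesis enzymes (rows, in pathway order, a line between the mevalonate steps and the later ones) from its own mean in each library (columns), on the log2 (cpm + 0.1) scale, red above and blue below the mean. Red and blue cells occur in all 6 columns, and deep colours occur for Hsd17b7, which is listed at 0 in 1 library, Nsdhl and Acat2.

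Among the genes that sense sterols, Insig2, which retains Scap in the endoplasmic reticulum, was at 9.60, 14.1 and 14.8 cpm in the libraries labelled Cnr1+/+ and at 13.97, 21.7 and 16.8 cpm in those labelled Cnr1-/-. The group means were 12.8 ± 2.83 and 17.5 ± 3.93 cpm (SD, n = 3 each), yet replicate 1 of the second group lay below 2 values of the first. Its log2 fold change was 0.45 (SE 0.25, 95% interval -0.06 to 0.96, limma adjusted p = 0.839), and its nominal p by the same fit was 0.0832. The nominal p of limma fell under 0.05 in 2 fits, without Cnr1+/+ replicate 3 (0.0485) and without Cnr1-/- replicate 1 (0.0430), and the log2 fold change was 0.28 without Cnr1-/- replicate 2 and 0.25 without Cnr1+/+ replicate 1, its lowest library. The adjusted p lay between 0.546 and 0.999 over all alternatives. Insig1, the paralogue that SREBP itself switches on, had 2.59, 5.09 and 2.94 cpm against 2.92, 2.42 and 1.67 cpm, with overlapping groups (exact permutation p = 0.2, two-sided, where 0.1 is the smallest that 3 against 3 allows).

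Scap, the escort of SREBP, had 24.8, 34.3 and 34.6 cpm against 26.5, 29.0 and 30.1 cpm. Its 3 libraries labelled Cnr1-/- lay within the range of the others, and the log2 fold change was -0.12 (95% interval -0.49 to 0.26, limma adjusted p = 0.954). Srebf2, which encodes the SREBP that drives cholesterol synthesis, had 14.5, 11.97 and 10.3 cpm against 10.2, 13.8 and 14.7 cpm, with a log2 fold change of 0.07 (95% interval -0.47 to 0.60, limma adjusted p = 0.986) that turned to -0.0098 with centred libraries. Srebf1, whose product favours fatty acid genes and which LXR switches on, had 3.37, 10.2 and 10.3 cpm against 8.66, 10.4 and 10.6 cpm. Replicate 1 of the libraries labelled Cnr1+/+ was the low value of Srebf1, at 26 reads, and the other five lay between 8.66 and 10.6 cpm. With a mean under the minimum it was compared only in the fit without one, where limma gave a nominal p of 0.168. Srebf1 shares 110 bases with Rai1 (14.8 cpm) on the opposite strand.

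The smallest nominal p among the tested sterol genes was that of Abcg1 (chromosome 17, 31057675 to 31117989, plus strand, in the files' mm10 annotation), the half-transporter that passes cholesterol to high-density lipoprotein. Its level was 35.0, 39.2 and 49.0 cpm for the Cnr1+/+ labels and 70.04, 55.4 and 56.05 cpm for the Cnr1-/- labels, that is, 270 to 647 reads a library. The lowest value of the second group was above the highest of the first. The group means were 41.1 ± 7.18 and 60.5 ± 8.28 cpm (SD, n = 3 each). The log2 fold change was 0.56 (SE 0.16, 95% interval 0.23 to 0.90), a fold of 1.48, where limma's nominal p was 0.00179 and its adjusted p was 0.478, so the gene did not pass after adjustment over the 6659 genes. The two-sided exact permutation p was 0.1, the smallest possible here. The nominal p was under 0.05 in every fit run, with adjusted p values between 0.127 and 0.856. Leaving out each library in turn gave log2 fold changes of 0.45 to 0.70, and that without Cnr1-/- replicate 2, the library with neutrophil transcripts, was 0.62. Over the 6 libraries its coefficient of variation was 24.99%, where counting gives 4.64%.

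**Figure D3:**
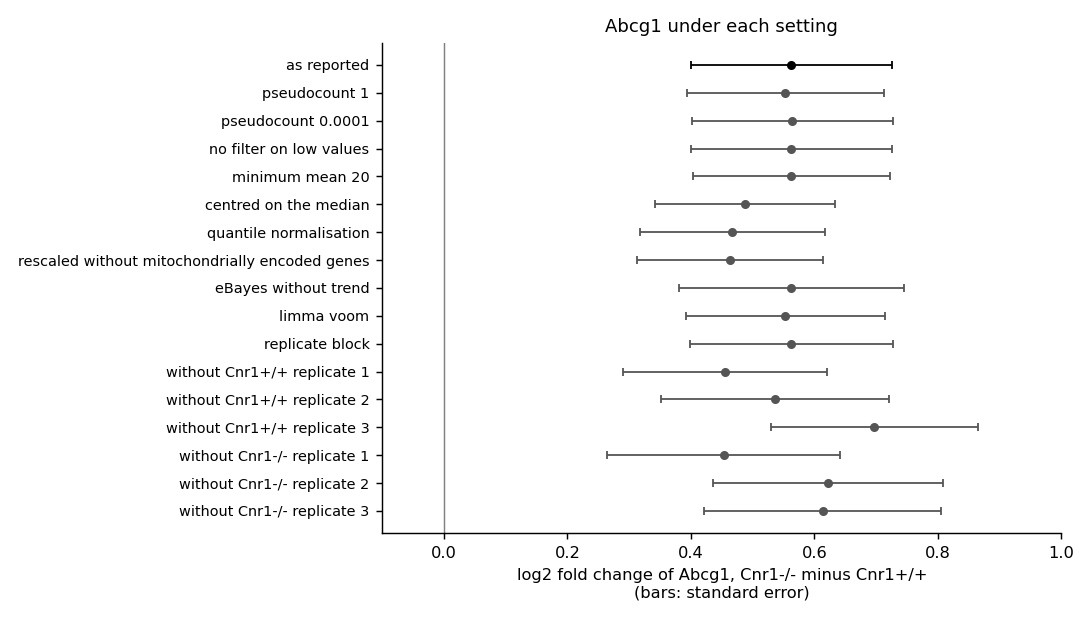
Log2 fold change of Abcg1, libraries labelled Cnr1-/- minus those labelled Cnr1+/+ (x axis), with its standard error, in each fit (y axis). All points lie between 0.45 and 0.70, to the right of 0, and the 3 rescalings of the libraries give 0.49, 0.47 and 0.46.

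Abca1 and Mylip, also known LXR targets, did not have a limma nominal p under 0.05, and after adjustment neither they nor Abcg1 passed. Abca1, which loads cholesterol onto apolipoproteins, had 108, 128 and 127 cpm against 124, 113 and 100.3 cpm, with overlapping groups. Its log2 fold change was -0.10 (SE 0.13, 95% interval -0.37 to 0.17, limma adjusted p = 0.946). Mylip, which marks the low-density lipoprotein receptor for degradation, had 76.4, 89.9 and 88.0 cpm against 99.9, 99.2 and 74.2 cpm, and the library labelled Cnr1-/- replicate 3 had the lowest value of all 6. The log2 fold change of Mylip was 0.09 (95% interval -0.20 to 0.39, limma adjusted p = 0.954), and it was -0.0053 after rescaling without mitochondrially encoded genes. The interval of Mylip overlapped that of Abcg1, and without Cnr1-/- replicate 3 the log2 fold change of Mylip was 0.24. The ratio of Abcg1 to Abca1 within a library, chosen after the values were seen, was 0.326, 0.308 and 0.386 against 0.565, 0.491 and 0.559, a log2 difference of 0.67 without overlap (two-sided exact permutation p = 0.1, the smallest possible). This ratio does not depend on the scaling between libraries. Because Abcg1 alone already separated the labels, the ratio is a description and no further support, and the ratio of Abcg1 to Nr1h2 overlapped (exact permutation p = 0.2, two-sided).

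**Figure D4:**
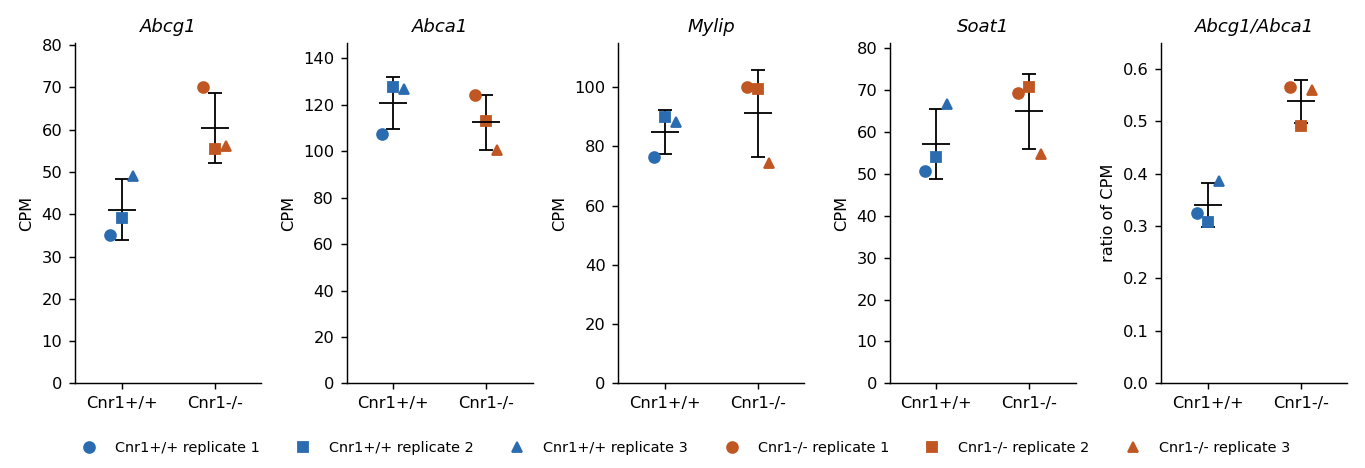
Values in each library for Abcg1, Abca1, Mylip and Soat1 (cpm) and for the ratio of Abcg1 to Abca1, with the mean and SD of 3 libraries in black, blue for libraries labelled Cnr1+/+ and orange for Cnr1-/-. The groups of Abcg1 and of the ratio are separate, with 49.0 against 55.4 cpm and 0.386 against 0.491 as the nearest values, and those of the other 3 genes overlap.

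Nr1h2, the LXR that most cells express, had 19.5, 20.2 and 19.98 cpm against 20.46, 23.3 and 20.2 cpm. Its groups were counted as not overlapping, although the nearest values differed by less than 1 read and the groups overlapped after each of the 3 rescalings, and its spread over the 6 libraries (6.68%) was no larger than counting gives (7.28%). The log2 fold change was 0.10 (95% interval -0.31 to 0.50, limma adjusted p = 0.964). Nr1h3, the LXR of liver and macrophages, was at 0.119 to 2.06 cpm, or 1 to 19 reads a library, and it shares 6874 bases with Gm13783 (0.686 cpm) on the same strand. Soat1, which esterifies cholesterol for storage in droplets, had 50.7, 53.9 and 66.6 cpm against 69.2, 70.6 and 54.6 cpm, with a log2 fold change of 0.18 (95% interval -0.13 to 0.50, limma adjusted p = 0.900) and overlapping groups. Stard4, a soluble sterol carrier, was at 0.239 to 2.19 cpm. In the fit without the minimum, the 95% intervals of their log2 differences were wide, -2.81 to 1.14 for Nr1h3 and -2.59 to 0.80 for Stard4.

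**Figure D5:**
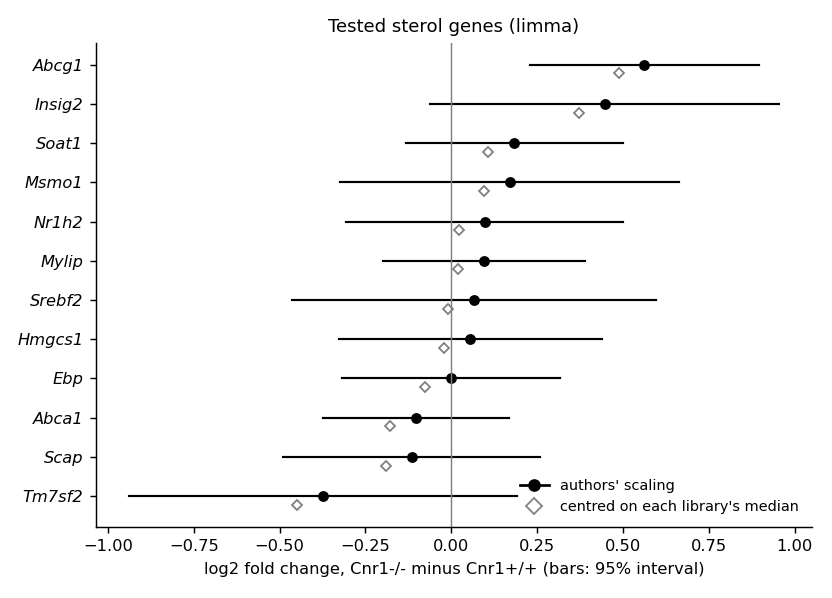
Log2 fold change of the 12 tested sterol genes (x axis, libraries labelled Cnr1-/- minus those labelled Cnr1+/+), black points with 95% intervals for the authors' scaling and grey diamonds after centring every library. The interval of Abcg1, 0.23 to 0.90, is the only one of the 12 that leaves out 0, and centring moves every gene to the left.

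Beside these genes, 54 other genes of the pathway were examined, of which 49 were analysed here and 30 tested. A nominal p under 0.05 was found for 2 of the 30, both higher in the libraries labelled Cnr1-/-, beside 6.02% of all tested genes. Scarb1, the scavenger receptor for high-density lipoprotein, had 16.9, 15.1 and 17.9 cpm against 23.2, 25.1 and 21.2 cpm, without overlap. The log2 fold change of Scarb1 was 0.48 (95% interval 0.06 to 0.89, limma adjusted p = 0.792). Its nominal p by limma was 0.0258. It exceeded 0.05 without Cnr1+/+ replicate 2 (0.0794), Cnr1-/- replicate 1 (0.0578) or Cnr1-/- replicate 2 (0.0965) and after rescaling without mitochondrially encoded genes (0.0545), where the log2 fold changes were 0.41, 0.48, 0.42 and 0.38. Fads2, a desaturase of polyunsaturated fatty acids under SREBP control, had 10.1, 12.6 and 6.10 cpm against 14.7, 12.03 and 18.96 cpm, with overlap. Its log2 fold change was 0.70 (95% interval 0.11 to 1.29, limma adjusted p = 0.792), and its limma nominal p of 0.0225 rose to 0.0557 with centred libraries, 0.0696 with quantile normalisation, 0.0572 after rescaling without mitochondrially encoded genes, 0.155 without Cnr1+/+ replicate 3 and 0.131 without Cnr1-/- replicate 3. Under the 3 scalings the log2 fold change of Fads2 was 0.62, 0.58 and 0.60, whereas it fell to 0.40 without Cnr1+/+ replicate 3 and was 0.53 without Cnr1-/- replicate 3. By list, 0 of 9 tested genes of synthesis and its control had a limma nominal p under 0.05, 1 of 9 of uptake and lysosomal release, 0 of 7 of efflux and oxysterols, and 1 of 5 fatty acid genes. Of the 30, 22 were higher and 8 lower by log2 fold change, with a median of 0.12, beside 68.4% higher and a median of 0.08 for all tested genes. With centred libraries, 19 were higher and 11 lower, beside 52.0% higher for all tested genes.

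The most abundant genes of these lists did not pass the nominal test with all 6 libraries and the authors' scaling. Lrp1, a large lipoprotein and debris receptor, had 240.1, 246 and 269 cpm against 291, 291 and 298 cpm, without overlap, with a log2 fold change of 0.22 (95% interval -0.01 to 0.46, limma adjusted p = 0.829). Rnf145, a ubiquitin ligase of sterol sensing, also did not overlap, and its log2 fold change was 0.27 (SE 0.15, limma adjusted p = 0.839). Apoe, the main apolipoprotein of the brain, had 520.0, 480 and 541 cpm against 411, 455 and 557 cpm and overlapped, with a log2 fold change of -0.12. Npc2, which hands cholesterol over in the lysosome, had a log2 fold change of 0.11, the corepressor Ncor1 one of 0.04, and the fatty acid desaturases Fads1 and Scd2 ones of 0.18 and 0.25, all with overlapping groups. In single alternatives the limma nominal p fell under 0.05 for 4 of these genes, at 0.0490 for Apoe with quantile normalisation, 0.0277 for Lrp1 without Cnr1+/+ replicate 3, 0.0324 for Rnf145 without Cnr1-/- replicate 1, and 0.0292 and 0.0274 for Scd2 without Cnr1+/+ replicate 2 or Cnr1-/- replicate 1. With a library left out, the log2 fold change of Scd2 ranged from 0.11 to 0.45. The adjusted p of these 4 genes was at least 0.497 under every alternative. The groups did not overlap for 6 of these 49 genes, beside 10.1% of all listed genes. Abca5, a lysosomal transporter of the Abca family, is named after its values were seen. It lay below the minimum for testing, at 5.19, 6.19 and 4.73 cpm against 2.49, 1.40 and 3.94 cpm, with a log2 fold change of -1.12 and, in the fit without the minimum, a limma nominal p of 0.0220 that became 0.892 after adjustment.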

How the data were processed

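RNA of CD11b+ cells was analysed as 3 libraries per label. The value columns are headed by numbers alone and were assigned through the sample number in each sample's description, on which every group value rests. The deposited values are CPM: the authors aligned the reads to mm10 with STAR, quantified them per gene by expectation-maximisation in Partek and scaled them with TMM. The listed genes hold 50.1% to 59.1% of each scaled total. Of the values above 0, 86.8% to 88.4% were whole multiples of 1 read (within 0.1 read), so tests for counts were not used, apart from limma voom as an alternative on reads derived from that step. The 6659 genes whose mean reached 10 CPM entered a limma fit (version 3.58.1, R 4.3.3, eBayes with trend) of log2 (CPM + 0.1), a scale that understates changes of low genes. The label was the sole factor, and p-values were adjusted over all 6659 genes (Benjamini-Hochberg). The steps were tested on simulated data. P-values measure the spread between mice. The genes and lists were chosen with earlier results of these data known. All 30 genes are named, and of the other pathway genes those with a nominal p under 0.05 and the 2 most abundant of each list, apart from genes not reported here. Alternatives were other pseudocounts, minimum means, scalings, eBayes without trend, voom, a replicate block and each library left out. Marker genes of other cell types were summed (neurons 31.7 to 37.4 cpm). Promoters came from RefSeq, and GENCODE transcripts were used to check the strand of those shown. Gene overlaps used the gene positions given with the deposited values. Python 3.11.15 and matplotlib 3.10.9 drew the figures.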

Additional observations from a re-analysis of the deposited data

How the results depend on the processing

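Of the 30 genes, 18 fell below the minimum mean and were compared only in the fit without it, with standard errors of 0.31 to 1.01 beside 0.13 to 0.28 for the tested 12, and the adjusted p of no sterol gene fell below 0.1 under any alternative. The number of sterol genes with a limma nominal p under 0.05 stayed at 1, apart from 1 to 2 with each library left out. The number higher was 17 of 30 without a minimum, 5 of 8 with a minimum mean of 20 and 4 of 12 after rescaling without mitochondrially encoded genes, where 58.1%, 71.8% and 46.2% of all genes were higher. Over all genes, 993 passed without a minimum, 263 with a minimum mean of 20 and 251 to 600 with each library left out, the lowest without Cnr1-/- replicate 2. Log2 fold changes near 0 turned sign. With libraries centred, quantile normalised or rescaled without mitochondrially encoded genes, Hmgcs1 was at -0.020, -0.013 and -0.044, Srebf2 at -0.0098, -0.019 and -0.033, and Ncor1, a corepressor (0.038 as tested), at -0.038, -0.055 and -0.062. The last rescaling also gave -0.0011 for Nr1h2 and -0.0053 for Mylip. With a library left out, the values ranged from -0.017 to 0.18 for Hmgcs1, -0.029 to 0.29 for Msmo1, -0.079 to 0.15 for Ebp, -0.051 to 0.23 for Srebf2 and -0.055 to 0.17 for Ncor1. Without a sign change, leaving out 1 library moved Scap (-0.12) to -0.27 without Cnr1+/+ replicate 1 and to -0.034 without Cnr1+/+ replicate 3, Abca1 (-0.10) to -0.18 without Cnr1+/+ replicate 1 and to -0.023 without Cnr1-/- replicate 3, Mylip (0.09) to 0.021 without Cnr1+/+ replicate 1 or Cnr1-/- replicate 1, Nr1h2 (0.10) to 0.032 without Cnr1-/- replicate 2, Soat1 (0.18) to 0.30 without Cnr1+/+ replicate 3 or Cnr1-/- replicate 3 and to 0.10 without Cnr1+/+ replicate 1, and Fads1 (0.18) to 0.053 without Cnr1-/- replicate 2 and to 0.33 without Cnr1-/- replicate 1. Apoe (-0.12) ranged from -0.24 to -0.026, Npc2 (0.11) from 0.053 to 0.18 and Rnf145 (0.27) from 0.16 to 0.39. Below the minimum, leaving out 1 library also turned the sign of Sqle (-0.24, to between 0.024 and 0.11), Lss (-0.24, to 0.20), Sc5d (0.16, to -0.015), Dhcr7 (0.20, to -0.097 and -0.030) and Srebf1 (0.47, to -0.053 without Cnr1+/+ replicate 1). The cause of these changes was not tested. Equal replicate numbers did not pair the libraries (correlations of -0.06, -0.03 and -0.03), and a replicate block gave 421 genes over all and 1 sterol gene, Abcg1.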
